A study of Mus musculus with 6 samples.

Results

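The immunoglobulin (Ig) gene segments are the V, D, J and C segments from which the heavy, kappa and lambda chains of antibodies are assembled. All segments that GENCODE release M21 of the mouse genome (GRCm38) annotates as functional Ig V, D, J or C genes were taken, and pseudogenes were left out. This gave 264 of the 55413 annotated genes of the 21 chromosomes. The heavy chain locus on chromosome 12 held 144 of them (113 V, 19 D, 4 J and 8 C), the kappa locus on chromosome 6 held 108 (102 V, 5 J and 1 C) and the lambda locus on chromosome 16 held 12 (3 V, 5 J and 4 C).

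H3K4me3, a histone mark of active promoters, was measured by ChIP-seq with an antibody against the trimethylated residue (Millipore) in a T and a B cell progenitor line of the mouse. Scid.adh.2C2 is a subclone of Scid.adh, a pro-T line that arose from a spontaneous thymic lymphoma of a CB17 mouse with the scid mutation of Prkdc, and 230-238 is a B cell progenitor line transformed with the Abelson virus. Each line contributed 2 H3K4me3 libraries and 1 input library. Both are tumour-derived or transformed lines grown in culture, so that each stands for itself and not for the progenitors of an animal.

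For each line there was 1 peak list that combined its replicates, with 15513 peaks for Scid.adh.2C2 and 19604 for 230-238. The lists gave no value per replicate and no read depth, so no spread between replicates and no test between the lines could be had, and an unmarked segment may still carry signal below the thresholds of the peak calling. A gene is called marked here if the 2500 bp on either side of any of its annotated transcription start sites (TSS) shared at least 1 bp with a peak. For D, J and C segments the most upstream annotated TSS is the upstream end of the annotated segment. Where transcription starts in these lines was not measured, and promoter here means the sequence around an annotated TSS. The fold enrichment of a peak is the caller's ratio of the ChIP signal at the summit to the background, and it was compared only within a list. Its median was 20.3 in Scid.adh.2C2 and 15.4 in 230-238. In bulk cultures such as these, fewer cells carrying the mark and less mark per cell cannot be told apart.

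The line labels were checked against lineage genes. In Scid.adh.2C2, 9 of 9 T lineage genes were marked, among them Cd3e (41.5-fold), Gata3 (39.9-fold) and Bcl11b (33.2-fold), and 1 of 8 B lineage genes, Vpreb1 (29.9-fold). In 230-238, 8 of 8 B lineage genes were marked, among them Cd79b (29.0-fold) and Ebf1 (26.1-fold), and 3 of 9 T lineage genes, Lck (16.8-fold), Cd3d (16.8-fold) and Tcf7 (15.2-fold). None of the 4 myeloid genes Csf1r, Csf3r, Mpo and Elane was marked in either line. Of the erythroid genes, Klf1 was marked in both lines (18.6-fold in Scid.adh.2C2 and 13.8-fold in 230-238) and Hba-a1 in neither.

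In developing lymphocytes the RAG recombinase joins V, D and J segments by cutting at recombination signals, each made of a heptamer, a spacer and a nonamer. The heavy chain locus is assembled first in B cell progenitors and the light chain loci later, and germline transcription of unrearranged segments, with H3K4me3 at the J segments, is known to accompany their opening to the recombinase, whose RAG2 subunit binds this mark. The intron between the heavy chain J segments and the mu constant gene Ighm holds the intronic enhancer and the tandem repeats of the mu switch region, and V promoters carry an octamer motif bound by Oct factors.

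The heavy chain J segments, of which 3 were marked in Scid.adh.2C2 and 4 in 230-238, and the D segment nearest to them are shown with their recombination signals. They lie on the minus strand of chromosome 12 and are given in the direction of transcription, with the heptamer and the nonamer in capitals. The coordinates on GRCm38 are chr12:113430500-113430566 for Ighd4-1, chr12:113429781-113429871 for Ighj1, chr12:113429468-113429554 for Ighj2, chr12:113429085-113429171 for Ighj3 and chr12:113428514-113428605 for Ighj4.
Ighd4-1: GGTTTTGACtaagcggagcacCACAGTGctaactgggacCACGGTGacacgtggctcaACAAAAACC
Ighj1: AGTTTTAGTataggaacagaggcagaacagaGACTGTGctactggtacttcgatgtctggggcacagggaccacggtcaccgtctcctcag
Ighj2: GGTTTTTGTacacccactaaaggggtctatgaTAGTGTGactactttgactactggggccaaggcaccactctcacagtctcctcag
Ighj3: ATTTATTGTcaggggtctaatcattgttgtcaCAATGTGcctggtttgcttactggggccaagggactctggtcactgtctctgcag
Ighj4: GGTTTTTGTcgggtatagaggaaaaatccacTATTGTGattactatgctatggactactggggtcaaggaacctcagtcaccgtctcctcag
The signals were found as the pair of heptamer and nonamer with the fewest differences from CACAGTG and ACAAAAACC, read outward from the segment (so that those before a segment appear above as reverse complements), with spacers of 12 or 23 bases or 1 base more or less. All 4 heavy chain J segments had a long spacer, and Ighd4-1, like 19 of 19 D segments on the upstream side and 18 of 19 on the downstream side, short ones. The nonamers of Ighj2 and Ighj4 were exact, and none of the 4 J heptamers was. The annotated Ighj2 (chr12:113429468-113429567) includes its signal, so that this signal was read within the annotation and not outside it. The heptamer CACAGTG occurred on either strand in 6.99% of all promoters of 300 bases and the nonamer ACAAAAACC in 0.559%.

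A second stretch, in the intron between Ighj4 and Ighm, is shown because the peak of Scid.adh.2C2 in this intron and the highest peak of 230-238 in the heavy chain locus had their summits in it, 68 bp apart. It is the 300 bases at chr12:113425397-113425696, read on the minus strand, with the 69 bases from the summit of 230-238 to that of Scid.adh.2C2 in capitals.
Ighj4-Ighm intron: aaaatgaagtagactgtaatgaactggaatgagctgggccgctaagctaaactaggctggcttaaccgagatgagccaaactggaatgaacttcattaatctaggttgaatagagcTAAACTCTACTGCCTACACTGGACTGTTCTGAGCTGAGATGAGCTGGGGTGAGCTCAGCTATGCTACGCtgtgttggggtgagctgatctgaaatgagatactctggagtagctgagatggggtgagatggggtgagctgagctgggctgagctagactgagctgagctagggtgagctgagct
The stretch holds copies of GAGCT, the pentamer that is repeated in the switch region.

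Of the kappa V segments, 4 of the 8 that were marked in 230-238 are shown by the 300 bases from 250 before to 50 after the TSS, with the octamer ATGCAAAT, or its reverse complement ATTTGCAT, in capitals. Igkv14-111 carried the highest peak, Igkv4-51 the next, Igkv2-112 lay farthest from the kappa J segments, and Igkv6-32 held no octamer. Their coordinates are chr6:68256139-68256438 on the plus strand, chr6:69681926-69682225 on the minus strand, chr6:68219731-68220030 on the plus strand and chr6:70074554-70074853 on the minus strand.
Igkv14-111: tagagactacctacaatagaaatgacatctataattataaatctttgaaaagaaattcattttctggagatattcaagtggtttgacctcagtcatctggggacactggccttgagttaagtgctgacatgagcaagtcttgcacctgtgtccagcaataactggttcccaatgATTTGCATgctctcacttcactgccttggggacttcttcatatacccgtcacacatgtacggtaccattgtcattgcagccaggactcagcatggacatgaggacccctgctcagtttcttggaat
Igkv4-51: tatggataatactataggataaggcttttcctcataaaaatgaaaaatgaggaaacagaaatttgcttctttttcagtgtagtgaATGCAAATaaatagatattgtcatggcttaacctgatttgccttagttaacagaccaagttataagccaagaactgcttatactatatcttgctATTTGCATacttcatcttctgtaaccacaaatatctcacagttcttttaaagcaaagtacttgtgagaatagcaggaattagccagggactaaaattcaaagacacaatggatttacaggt
Igkv2-112: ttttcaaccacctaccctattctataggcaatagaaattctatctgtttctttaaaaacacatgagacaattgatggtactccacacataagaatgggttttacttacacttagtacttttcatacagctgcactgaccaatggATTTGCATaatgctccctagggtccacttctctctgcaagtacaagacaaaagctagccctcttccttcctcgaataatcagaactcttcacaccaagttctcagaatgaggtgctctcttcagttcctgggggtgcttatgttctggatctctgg
Igkv6-32: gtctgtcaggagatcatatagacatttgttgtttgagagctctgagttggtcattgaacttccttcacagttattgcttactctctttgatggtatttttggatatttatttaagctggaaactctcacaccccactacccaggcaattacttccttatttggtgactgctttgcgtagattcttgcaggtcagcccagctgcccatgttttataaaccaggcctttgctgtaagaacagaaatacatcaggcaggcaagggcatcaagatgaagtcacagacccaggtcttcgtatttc

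Few Ig segments were marked in either line, and those that were fell into the heavy chain J region and, in 230-238, among the kappa V segments. In Scid.adh.2C2, 4 of 264 members were marked (1.52%, 95% Wilson interval 0.591% to 3.83%), against 23.6% of all annotated genes and 45.5% of protein-coding genes. In 230-238, 14 of 264 were marked (5.30%, interval 3.18% to 8.70%), against 25.5% of all genes and 48.2% of protein-coding genes. These intervals cover counting error only, and neighbouring segments share peaks. All 4 members marked in Scid.adh.2C2 were also marked in 230-238, where 21.4% of all genes were marked in both lines. A further 10 members were marked in 230-238 only, against 4.10% of all genes, and 0 in Scid.adh.2C2 only, against 2.19%. The 14 members of 230-238 were reached by 11 different peaks, and the 4 of Scid.adh.2C2 by 1 peak.

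By segment type, the J segments had the highest share with this window, with 3 of 14 in Scid.adh.2C2 (21.4%, interval 7.57% to 47.6%) and 4 of 14 in 230-238 (28.6%, interval 11.7% to 54.6%), and all of these belonged to the heavy chain locus. In Scid.adh.2C2 this order depended on the window, since 0 J segments and 1 C segment were marked with 1000 bp and none of either with summits in place of overlaps, while in 230-238 the 4 J segments kept their mark under both. Of the 13 C segments, Ighm alone was marked, in both lines. Of the 19 D segments, Ighd4-1 alone was marked, in 230-238. Of the 218 V segments, 0 were marked in Scid.adh.2C2 (interval up to 1.73%) and 8 in 230-238 (3.67%, interval 1.87% to 7.07%), all of the kappa locus. By locus, 4 of 144 heavy chain members were marked in Scid.adh.2C2 (2.78%) and 6 in 230-238 (4.17%), and 0 and 8 of 108 kappa members (7.41% in 230-238). None of the 12 lambda members was marked in either line.

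**Figure D1:**
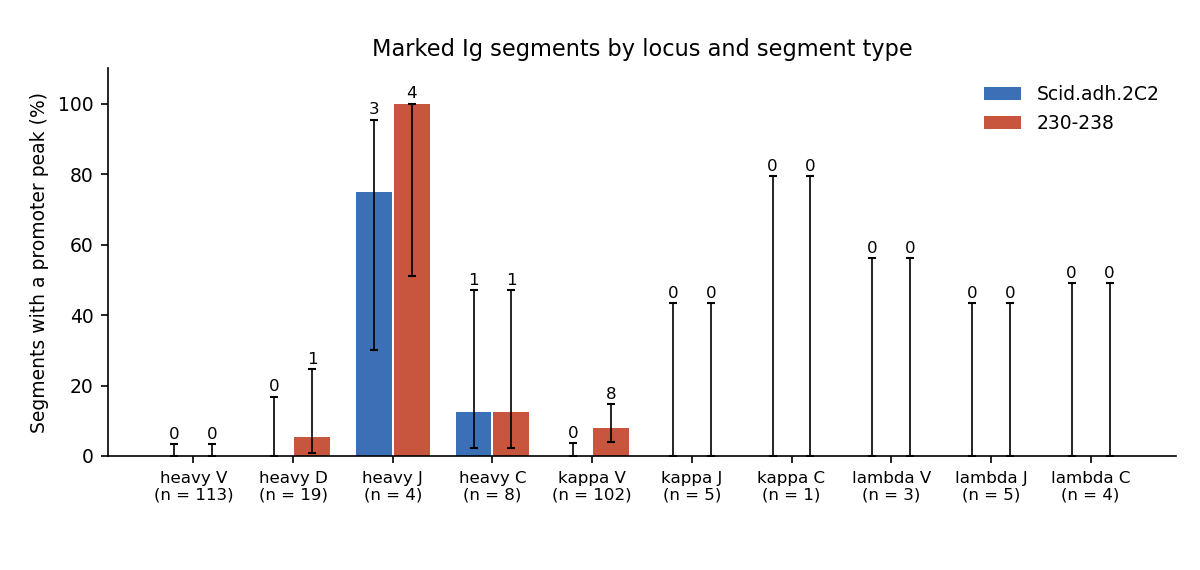
Share of Ig segments with an H3K4me3 peak within 2500 bp of the TSS, in percent, for each locus and segment type in Scid.adh.2C2 (blue) and 230-238 (red). Error bars are 95% Wilson intervals, with the number of marked segments over each; 3 and 4 of 4 heavy chain J segments were marked, against 0 and 8 of 102 kappa V segments and 0 of 113 heavy chain V segments in both lines.

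In the heavy chain locus both lines had a peak between the J segments and Ighm, which encodes the constant region of IgM, but over different stretches. In Scid.adh.2C2 a 12.1-fold peak of 3647 bp (chr12:113423459-113427105) lay wholly inside the 5783 bp intron between Ighj4 and Ighm. It overlapped no segment, and its nearest edge was 729 bp from the TSS of Ighm and 1462 bp from that of Ighj4, so that Ighm, Ighj4, Ighj3 and Ighj2 were marked by proximity and Ighj1, 2728 bp away, was not. It also reached the windows of annotated genes that are not Ig segments. With 1000 bp on either side of the TSS, Ighm was the only marked member in this line. The peak ranked 10913 of 15513 by fold enrichment, and its −log10 q was 34.0, against a median of 90.9 over the list.

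In 230-238 the same region held 3 peaks, all above the list's median fold enrichment, and each also reached the window of at least 1 gene that is not an Ig segment. The highest, at 27.5-fold, ranked 1304 of 19604 and covered 2130 bp of the intron (chr12:113425315-113427444). The peak next to the J segments was 22.8-fold over 1972 bp (chr12:113427638-113429609) and covered Ighj4, Ighj3 and Ighj2 whole. It ended 224 bp from the TSS of Ighj1 and 929 bp from that of Ighd4-1, which were marked by proximity. The third, at 19.0-fold over 2116 bp (chr12:113422169-113424284), covered the TSS of Ighm. Together they covered 6218 bp, of which 2617 bp were also covered in Scid.adh.2C2. Of the J segments, which supply the end of the variable region, Ighj2, Ighj3 and Ighj4 were thus covered in 230-238, Ighj1 was not, and none was covered in Scid.adh.2C2.

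The summits of the Scid.adh.2C2 peak (113425512) and of the highest 230-238 peak (113425580) lay in the intron sequence printed above. Beside them the lines differed, since the Scid.adh.2C2 peak ran on across 1030 bp (chr12:113424285-113425314) that separated 2 of the 230-238 peaks. In this gap 20.9% of 32-mers occurred once in the genome, against 100%, after rounding, in each of the 3 peaks of 230-238, and GAGCT or its reverse complement occurred 138 times (134 per kb), against 13.7 and 12.2 per kb in the peaks to either side. GAGCT alone is common, and 48.5% of all promoters of 300 bases held it. How reads from these repeats were placed was not tested. The only octamer in the 3 peaks of 230-238 lay at chr12:113427424-113427431, inside the highest peak and beyond the end of the Scid.adh.2C2 peak.

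**Figure D2:**
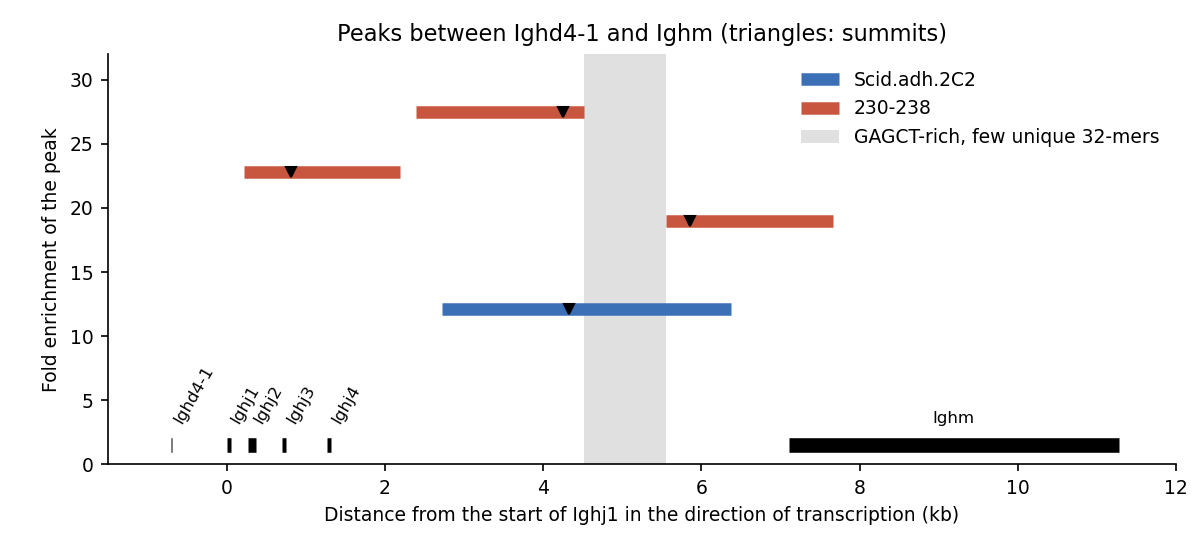
Peaks between Ighd4-1 and Ighm, drawn as bars from start to end against the distance from the start of Ighj1 in kb (x axis) and their fold enrichment (y axis), for Scid.adh.2C2 (blue) and 230-238 (red), with summits as triangles and segments as black boxes. The 12.1-fold Scid.adh.2C2 peak crosses the grey stretch of GAGCT repeats, with 20.9% of unique 32-mers, which lies between the 27.5-fold and the 19.0-fold peak of 230-238.

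The other 18 D segments and the other 7 constant genes were unmarked in both lines. Whether segments had been joined or deleted by rearrangement in either line was not analysed, so that for all 3 loci an unmarked segment may be one that is absent, and distances are those of the unrearranged reference. None of the 113 heavy chain V segments, which all lie on the minus strand, was marked in either line (0%, interval up to 3.29%), and the nearest peak to any of them was 11554 bp away in Scid.adh.2C2 and 46660 bp away in 230-238. The median distance from a heavy chain V segment to the nearest peak was 310 kb in Scid.adh.2C2 and 712 kb in 230-238. Adam6a and Adam6b, the protein-coding genes inside the locus, were unmarked in both lines.

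A single peak lay among the heavy chain V segments, in Scid.adh.2C2 only. It was 25.7-fold over 1573 bp (chr12:114378508-114380080), the highest of the Ig loci in this line, and its summit was 11.9 kb upstream of the TSS of Ighv12-3, with no annotated gene within 2500 bp. Its sequence held 45 CpG dinucleotides. An alignment of 857 bp within it matched chr11:53858683-53859530 at 95% identity, and an adjoining one of 821 bp, which lay mostly beyond the edge of the peak, matched chr11:53859607-53860397 at 93.5%. These bases surround the start of Gm12216, a gene named after its values were seen, where both lines had a peak, at 24.3-fold in Scid.adh.2C2 and 17.3-fold in 230-238. Of the 32-mers of the peak among the V segments, 70.9% occurred once in the genome. Whether its reads came from the V region or from the copy was not tested, and neither was the difference between the DNA of the CB17 mouse and the C57BL/6J reference.

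Beyond the last constant gene, Igha, on the side of the 3′ regulatory region, both lines had a peak outside the promoter window of any gene. Their summits, at 113222371 in Scid.adh.2C2 and 113222372 in 230-238, were 8.27-fold over 641 bp and 21.4-fold over 1618 bp. In 230-238 another peak of 7.34-fold lay at chr12:113217453-113218232. Among the protein-coding genes next to the locus, Tmem121 was marked in 230-238 (18.2-fold) and not in Scid.adh.2C2, and Zfp386, beyond the V segments, in both lines (21.6-fold in 230-238 and 19.0-fold in Scid.adh.2C2).

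In the kappa locus the lines differed in how many peaks they held. The 3.17 Mb from the first to the last kappa segment held 27 peaks in 230-238 (8.51 per Mb, against 7.19 per Mb over the genome) and 1 in Scid.adh.2C2 (0.315 per Mb, against 5.69). With both lists at 15513 peaks, or 5.69 per Mb, 230-238 had 15 peaks in these 3.17 Mb, so that its density in the locus was then below that of the genome. No kappa peak overlapped between the lines. In 230-238 they were weak for this list, with a median of 8.73-fold and a range from 4.10-fold to 27.3-fold, and 1 of 27 was above the list's median. Their median width was 795 bp, against 1590.5 bp in the whole list. The Scid.adh.2C2 peak was 6.22-fold over 714 bp, with its summit 4.61 kb from the TSS of Igkv14-130, and it reached no promoter window. For comparison, the 2.75 Mb of the heavy chain locus held 3 peaks in 230-238 (1.09 per Mb), with a median of 22.8-fold, and 2 in Scid.adh.2C2 (0.728 per Mb).

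Of the 102 kappa V segments, which encode most of the variable region of kappa chains, 8 were marked in 230-238 (7.84%, interval 4.03% to 14.7%) and 0 in Scid.adh.2C2. The 8 became 4 with peaks of at least 10-fold, 5 with lists of equal length and 3 with peaks in which at least 90% of 32-mers were unique, the last chosen after seeing the data. The highest was Igkv14-111 at 27.3-fold, which ranked 1401 of 19604. Igkv4-51 followed at 13.3-fold, Igkv2-112 at 12.7-fold and Igkv4-58 at 11.3-fold. Igkv3-7 (8.73-fold), Igkv10-95 (8.47-fold), Igkv6-32 (6.43-fold) and Igkv8-30 (6.16-fold) were below 10-fold. The peak of Igkv6-32 had an IDR score of 913, below the highest score of 1000. Each of the 8 segments had a peak of its own, and that of Igkv14-111 also reached the window of a gene that is not an Ig segment. The order depends on the measure, since of the 14 marked members of this line 5 kept their rank with −log10 q and 1 with covered length in place of fold enrichment.

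Among them, the TSS lay inside the peak for Igkv14-111, Igkv4-58, Igkv4-51, Igkv6-32 and Igkv3-7. At Igkv4-58, Igkv4-51 and Igkv2-112 the summit was 557, 534 and 614 bp upstream of the TSS. The summit was 249, 892, 1026 and 2008 bp downstream of the TSS at Igkv10-95, Igkv6-32, Igkv3-7 and Igkv8-30, and 3555 bp upstream at Igkv14-111. The marked segments belonged to 7 of the 20 numbered kappa V families, and family 4, the largest with 26 members, held 2 of them. On the plus strand 4 of 38 V segments were marked (10.5%, interval 4.17% to 24.1%) and on the minus strand 4 of 64 (6.25%, interval 2.46% to 15%). The difference between the strands was not tested.

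Most kappa peaks were not at a functional V segment. Of the 27 peaks in 230-238, 8 overlapped the promoter window of a V segment, 3 that of V pseudogenes only (Igkv13-71-1, Gm43586 and Igkv8-31, named after their values were seen) and 16 that of no annotated Ig segment or other gene. In 4 parts of equal length, from the end far from the J segments to the near one, there were 8, 3, 5 and 11 peaks, with 2 of 20, 1 of 23, 2 of 25 and 3 of 34 V segments marked. The peaks spanned 2399 kb, and 16 V segments lay beyond the far end of them. The longest stretch without a peak between them was 423 kb, and the last peak ended 114 kb short of Igkj1.

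**Figure D3:**
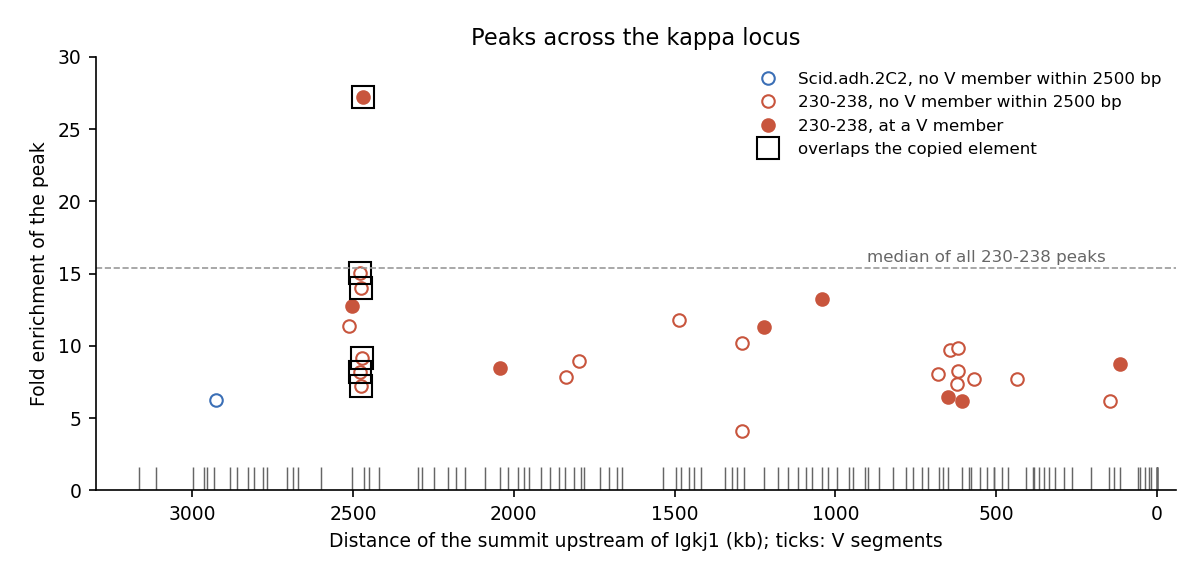
Fold enrichment (y axis) of each peak of the kappa locus against the distance of its summit upstream of Igkj1 in kb (x axis), in Scid.adh.2C2 (blue) and 230-238 (red), filled where a V segment lies within 2500 bp. Ticks mark the V segments, the dashed line is the median of all 230-238 peaks (15.4-fold) and squares mark the 6 peaks that overlap a copied element, among them the highest at 27.3-fold.

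Of the 27 kappa peaks of 230-238, 16 had copies elsewhere in the genome at 90% identity or more. Among them were the peaks of Igkv10-95 (96.7% identity), Igkv4-58 (95.9%), Igkv4-51 (95%), Igkv3-7 (94.8%) and Igkv8-30 (91.0%), and the copies of the Igkv4-58 and Igkv4-51 peaks also had a peak in 230-238.

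A cluster of 6 kappa peaks overlapped an element with near-identical copies elsewhere. This element of 9902 bp (chr6:68242384-68252285) begins and ends with the same 1328 bp in the same orientation, at 100% identity. It matched chr4:46575143-46585044, inside Coro2a, also named after its values were seen, at 97.4% identity, and chr12:92882540-92892440 at 96.8%. Both copies were marked in 230-238, by 3 peaks of up to 11.7-fold on chromosome 4 and by 6 peaks of up to 17.3-fold on chromosome 12, and neither had a peak in Scid.adh.2C2. Within the element in the kappa locus, 5 peaks of 7.18-fold to 15.1-fold lay whole, and 23.9% to 43.6% of their 32-mers occurred once in the genome. The peak of Igkv14-111 (chr6:68252118-68257804) began in the last 168 bp of the element and had its summit 549 bp beyond it, and 88.6% of its 32-mers occurred once. Without the 6 peaks, chosen after seeing the data, the locus held 21 peaks and 7 marked V segments. From which of the copies the reads came was not tested. Direct repeats at both ends are a feature of retroviral elements, but the kind of this element was not determined, and whether the peak of Igkv14-111 belongs to the V segment or to the element beside it was not tested.

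The kappa J segments and the kappa constant gene Igkc, between which the kappa intronic enhancer lies, were unmarked in both lines (0 of 6). In their windows 100% of 32-mers were unique, and the part of this in the lack of peaks was not tested. On the far side of the constant gene, Rpia, which encodes a sugar phosphate isomerase, was marked in both lines (24.2-fold in Scid.adh.2C2 and 22.9-fold in 230-238). The lambda locus, the smallest with 0.199 Mb, held 0 peaks in both lines, and none lay within 50 kb of it. The median distance from a lambda member to the nearest peak was 261 kb in Scid.adh.2C2 and 262 kb in 230-238. Of its neighbours, Hira was marked in both lines (41.7-fold and 24.1-fold) and Olfr164 in neither.

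How uniquely a sequence can be placed differed between the segment types. Within 2500 bp of the TSS, the median share of 32-mers found once in the genome was 67.6% over the heavy chain V segments, 66.5% over the kappa V segments, 83.7% over the lambda V segments and 48.0% over the D segments, against 100% over the J and 95.3% over the C segments. The share was below 50% in 25 of 113 heavy chain V segments, in 25 of 102 kappa V segments and in 10 of 19 D segments. The 8 marked kappa V segments had a median of 80.1%, from 50.9% at Igkv10-95 to 97.1% at Igkv6-32, and the 94 unmarked ones a median of 64.5%. None of the 25 kappa V segments below 50% was marked, and of the 16 with a share of 90% or more, 1 was. The part of repeated sequence in these counts was not tested. At the other end, 18 heavy chain V segments had a share of 90% or more and were unmarked in both lines.

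**Figure D4:**
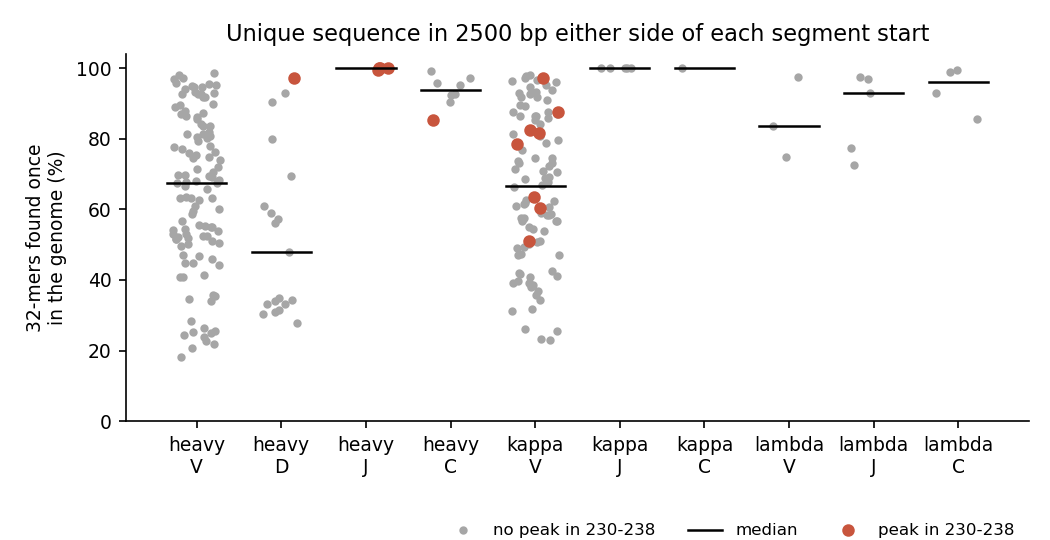
Share of 32-mers that occur once in the genome (y axis, in percent) within 2500 bp of the start of each Ig segment, by locus and segment type, with segments marked in 230-238 in red, the others in grey and medians as black lines. The V segments spread from 18.1% to 98.5%, all 8 marked kappa V segments lie above 50%, and the kappa J and C segments, all at 100%, are unmarked.

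The octamer ATGCAAAT or its reverse complement was present in the promoters of 91 of 113 heavy chain V segments (80.5%), 74 of 102 kappa V segments (72.5%) and 3 of 3 lambda V segments, against 2.24% of all promoters of 300 bases. Its first match began at a median of 107 bases before the TSS in heavy chain V promoters and 92 bases in kappa V promoters. It did not separate the marked from the unmarked segments, with 6 of 8 marked kappa V promoters (75.0%) and 68 of 94 unmarked ones (72.3%) holding it. No D, J or C member had one in this window. Downstream of the V segments, the best signal had a long spacer in 107 of 113 heavy chain and 3 of 3 lambda segments and a short one in 101 of 102 kappa segments, and the heptamer was exact in 86 of these 101.

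Ig promoters were poor in CpG dinucleotides, with a median of 1 in 300 bases, against 4 over all genes. Of the 264 members, 194 had at most 1 CpG, and of these 0 were marked in Scid.adh.2C2 and 5 in 230-238 (2.58%). Among all genes with at most 1 CpG, 3.67% were marked in Scid.adh.2C2 and 4.75% in 230-238. With 2 to 4 CpG, 4 of 61 members (6.56%) and 8 of 61 (13.1%) were marked, against 7.58% and 9.28% of all genes. With 5 to 9 CpG, 0 and 1 of 9 members (11.1% in 230-238) were marked, against 17.5% and 19.4%. No Ig member had 10 or more, the class in which 59.6% and 62.4% of all genes were marked. No test was made of these differences.

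The T cell receptor segments, which are assembled by the same recombinase in T cells, were taken for comparison. Of 226 functional T cell receptor segments, 23 were marked in Scid.adh.2C2 (10.2%, interval 6.88% to 14.8%) and 13 in 230-238 (5.75%, interval 3.39% to 9.59%), against 4 and 14 of 264 Ig segments. By type, 14 and 7 of 144 V segments, 1 and 0 of 4 D segments and 7 and 3 of 70 J segments were marked in Scid.adh.2C2 and 230-238. The C segments went the other way, with 1 and 3 of 8. In 230-238 the Ig and the T cell receptor segments thus had similar shares, 5.30% and 5.75%.

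Of 26 genes whose products act with the Ig segments, 15 were marked in Scid.adh.2C2, against 45.5% of all protein-coding genes, and 24 in 230-238, against 48.2%. All 6 genes for the surrogate light chain and the signalling partners of the receptor were marked in 230-238, from Igll1 at 8.79-fold to Cd79b at 29.0-fold, and 1, Vpreb1, in Scid.adh.2C2. The recombinase genes Rag1 (16.5-fold) and Rag2 (8.20-fold) were marked in Scid.adh.2C2 and not in 230-238, while Dntt, which encodes the terminal transferase, was marked at 6.02-fold in 230-238 only. The octamer factor genes Pou2f1 and Pou2f2 and the co-activator gene Pou2af1 were marked in both lines. Of 12 genes for factors acting on the loci, all were marked in 230-238 and 8 in Scid.adh.2C2, where Pax5, Ebf1, Irf8 and Spib had no peak. Ung, which encodes the uracil glycosylase that acts in class switching, was marked in both lines (26.7-fold in Scid.adh.2C2 and 29.3-fold in 230-238).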

How the data were processed

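H3K4me3 ChIP-seq was analysed from Scid.adh.2C2 and 230-238, with 2 H3K4me3 libraries and 1 input library each, grouped by the sample labels. Per the methods of the study and the submitters' processing notes, the authors trimmed reads with Trim Galore 0.6.7, mapped them to mm10 (GRCm38) with Bowtie2 2.4.4, called narrow peaks with MACS2 2.2.7.1 against input and kept the optimal set by irreproducible discovery rate (IDR), pooling the replicates. For each peak the deposited columns give an IDR score, a ratio (fold enrichment over background), −log10 of the p-value, −log10 of the q-value and the position of the summit. These were used without change and compared only within a list. The deposited lists give no read depth.

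TSSs, segment types and loci were taken from GENCODE M21. Peaks, windows and spans were intersected with a minimum overlap of 1 bp, and shares were given with 95% Wilson intervals. Uniqueness was the share of 32-mers found once in the 21 chromosomes, both strands counted. Copies of each peak of the loci, and of the sequence around the highest peak of the kappa locus in 230-238 and of the heavy chain locus in Scid.adh.2C2, were searched with blastn 2.17.0+ at 90% identity or more. Sequences were read from the GRCm38 genome of RefSeq by GENCODE coordinates. Counting functions were tested on simulated data. The code ran in Python 3.11.15 with numba 0.67.0, pandas 2.3.3, matplotlib 3.10.9, scipy 1.17.1 and numpy 2.4.6.

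The members and lists were chosen with earlier results of these data known. The genes named were every marked D, J and C member, the 10 V members of each locus with the highest fold enrichment in each line, the fixed lists of pathway and lineage genes, and the protein-coding genes inside or next to each locus. Coro2a, Gm12216, the pseudogenes and unmarked neighbouring segments given as landmarks were named after their values were seen. The comparisons were descriptive, with no test, because each line had 1 combined list. The alternatives were windows of 1000 or 5000 bp, peaks of at least 10-fold, peaks with a score of 1000, lists of equal length (15513 peaks), summits in place of overlaps, the most upstream TSS, gene bodies, merged peaks, extended spans, a reciprocal overlap of 50%, and −log10 q or covered length in place of fold enrichment for the order of members. Peaks with at least 90% unique 32-mers and peaks outside a copied element were added after seeing the data. Input libraries were not counted here, since they have no list of their own.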

Additional observations from a re-analysis of the deposited data

How the results depend on the processing

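Of 389 values over 66 results, 26 of the main counts moved by more than 1.5 times, or to or from 0, and 229 did not. Many of these 229 were 0 in the main setting, and settings that only remove peaks or narrow the window could not move them. Of the other values (counts of a whole locus or segment type, fold enrichments of single members and their order), 22 moved and 112 did not, where a fold enrichment counted as moved at any change. By covered length 1 of 4 members kept its rank in Scid.adh.2C2 and 1 of 14 in 230-238, and by −log10 q 5 of 14 in 230-238. The count of marked members in Scid.adh.2C2, 4 in the main setting, rests on 1 peak that overlaps no segment. It was 1 with a window of 1000 bp, 7 with 5000 bp, and 0 when the summit had to lie in the window, when gene bodies replaced TSSs or when only peaks with at least 90% unique 32-mers were used (the last chosen after seeing the data). The marked J segments of this line numbered 0 with 1000 bp, with summits and with unique peaks, and its marked C segments 0 with summits and with unique peaks. With 5000 bp, 1 D and 1 kappa V segment were marked in it, and 1 member had a peak in this line alone. With 1000 bp, 1 member was marked in both lines.

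In 230-238, with 14 marked members, 9 remained with unique peaks. Its marked kappa V segments numbered 4 with peaks of at least 10-fold, 5 with lists of equal length and 3 with unique peaks, in place of 8. The 27 kappa peaks became 9, 15 and 10 under the same settings. The kappa peak of Scid.adh.2C2 was lost at 10-fold (0). The heavy chain locus held 4 peaks in Scid.adh.2C2 and 6 in 230-238 with the span extended by 50 kb, and 0 in Scid.adh.2C2 with unique peaks. With a reciprocal overlap of 50%, 0 peaks of the loci were shared between the lines. The causes were not tested. Leaving out the peaks of the copied element, also chosen after seeing the data, moved no count by more than 1.5 times. No heavy chain V segment and no lambda member was marked under any setting run for them. No paired analysis was possible because each line had 1 combined list, and for the same reason no replicate could be left out. Depth is unknown, so that weak peaks may be missed in either line.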

Other observations

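In the list of 230-238, 3 of 158 Ig V pseudogenes were marked (1.90%, 95% Wilson interval 0.648% to 5.43%), against 8 of 218 functional V segments, and in Scid.adh.2C2 0 of 158 were. The TSS of the pseudogene Gm43586 lay 37 bp from the summit of an 8.04-fold peak in the kappa locus with 100% unique 32-mers. A 6.18-fold kappa peak of 230-238 at chr6:70577725-70578131 lay whole in repeat-masked sequence, with 15527 partial copies of at least 90% identity in the genome and an IDR score of 802, the lowest among the kappa peaks.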
